A study of Mus musculus with 21 samples.

Results

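The genes described here encode the proteins of the cytosolic ribosome. They were taken by symbol from the RefSeq annotation of mm10, as every protein-coding gene named Rpl or Rps followed directly by a digit, together with Rplp0, Rplp1, Rplp2 and Rpsa. Symbols of the S6 kinases and of pseudogenes were left out. The rule found 89 genes among 20949 protein-coding genes with a curated transcript on chromosomes 1 to 19 and X. Of these, 77 were ribosomal proteins proper, 46 of the large and 31 of the small subunit, and 12 were paralogs or genes that only share the name. No measured value entered the choice.

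The study profiled the ganglionic eminences, the ventral forebrain swellings that give rise to the basal ganglia and to cortical interneurons, in mouse embryos of the CD1 strain. At E13.5 (E for embryonic day), chromatin fixed with DSG and then PFA was immunoprecipitated with antibodies to CHD4, HDAC1, HDAC2, MBD3, RBBP4 or RBBP7, with 1 library for each subunit and 3 input libraries. By the labels, input 1 served the HDAC1 and HDAC2 libraries, input 2 those of CHD4 and MBD3, and input 3 those of RBBP4 and RBBP7. At E12.5, chromatin accessibility was measured in WT and Dlx1/2KO embryos, each sorted into FTpos cells of the ventricular zone and FTneg cells of the zones outside it (subventricular and mantle), with 3 embryos for each of the 4 groups. The accessibility lists combine those 3 embryos.

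NuRD joins a nucleosome remodeller, CHD4, to the histone deacetylases HDAC1 and HDAC2. MBD3 holds these parts together, and the histone-binding proteins RBBP4 and RBBP7 also belong to other chromatin complexes. Ribosomal protein genes are short, are transcribed at high rates in nearly every cell, and must supply their products in equal amounts. Their mRNAs start with a run of pyrimidines, the 5′ terminal oligopyrimidine tract, through which growth signals control their translation, and many of their introns carry small nucleolar RNAs (snoRNAs).

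For 3 of the 6 ChIP samples the deposited list bears the name of another subunit. The CHD4 sample has a list named HDAC1, the HDAC1 sample a list named HDAC2, and the HDAC2 sample a list named CHD4, while the other lists bear the name of their own sample. Each list is called here by its sample, as in "the CHD4-labelled list", and the files did not settle which of the names is correct. A list is a set of intervals where the authors' caller found signal over input, each with a fold enrichment at its summit, which is the authors' value throughout. The lists held between 5517 peaks (HDAC2) and 29762 peaks (RBBP4), with 18274 in the CHD4-labelled list, and the depth of the libraries is unknown. No list has a replicate, so no difference below carries a test. Wilson 95% intervals cover counting error over genes only. All 6 marker genes of the ganglionic eminence examined (Dlx1, Dlx2, Gad1, Gad2, Lhx6 and Nkx2-1) had a peak at an end in at least 1 list. Of the microglial markers 0 of 4 had one, and of the endothelial markers 0 of 4. Over all protein-coding genes, 42.7% had no peak at an end in any list, and the few markers were not tested against that share. The tissue was profiled in bulk, so fewer cells carrying a peak and a weaker signal in each cell cannot be told apart.

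Starts of ribosomal protein genes are shown first, because most of the peaks described below lay on or just after them. RefSeq promoter sequences of GRCm38.p6, the assembly of mm10, matched 69 of the 89 genes, with 81 annotated starts. Each line gives 100 bases before the annotated start and 15 bases from it onward. Capitals mark the longest run of at least 8 pyrimidines reaching into the last 40 bases before the start or beyond. Rpl4 had the highest CHD4-labelled peak of the family, Rpl27 and Rpl13 were each in 5 lists, Rpsa and Rplp0 were in the CHD4-labelled list alone, Rps25 was in none, and Rpl39 and Rpl39l are a pair of which only the first had a peak.
Rpl4 (chr9:64173287-64173401, plus strand): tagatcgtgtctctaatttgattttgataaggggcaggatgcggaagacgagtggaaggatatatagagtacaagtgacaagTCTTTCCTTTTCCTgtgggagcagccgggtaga
Rpl27 (chr11:101442145-101442259, plus strand): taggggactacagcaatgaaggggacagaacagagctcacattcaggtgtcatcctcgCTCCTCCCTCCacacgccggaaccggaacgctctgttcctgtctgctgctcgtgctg
Rpl13 (chr8:123102250-123102364, plus strand): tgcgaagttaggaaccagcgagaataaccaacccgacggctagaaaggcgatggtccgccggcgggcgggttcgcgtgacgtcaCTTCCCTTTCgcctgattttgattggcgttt
Rpsa (chr9:120127666-120127780, plus strand): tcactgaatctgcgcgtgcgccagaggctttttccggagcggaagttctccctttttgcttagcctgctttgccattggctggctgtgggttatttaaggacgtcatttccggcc
Rplp0 (chr5:115559367-115559481, plus strand): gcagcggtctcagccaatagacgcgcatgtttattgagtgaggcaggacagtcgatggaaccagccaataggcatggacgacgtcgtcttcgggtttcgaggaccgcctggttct
Rps25 (chr9:44407614-44407728, plus strand): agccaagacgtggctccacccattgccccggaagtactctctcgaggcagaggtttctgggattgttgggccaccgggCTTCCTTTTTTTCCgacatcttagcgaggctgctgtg
Rpl39 (chrX:37085208-37085322, minus strand): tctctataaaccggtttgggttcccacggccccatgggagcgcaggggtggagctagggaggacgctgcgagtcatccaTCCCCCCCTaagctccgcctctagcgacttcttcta
Rpl39l (chr16:10170128-10170242, plus strand): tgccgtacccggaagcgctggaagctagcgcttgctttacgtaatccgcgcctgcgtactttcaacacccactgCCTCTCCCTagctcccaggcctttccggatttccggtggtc
The run had 14 bases in Rpl4 and also 14 in Rps25, which had no peak, and began 18 and 22 bases before the annotated start. Rpsa and Rplp0 had no such run in the last 40 bases before the start or beyond. The letters CCGGAAG, a match to ETS family factors, stood within the printed stretch of Rps25 and of Rpl39l, both without a peak. In the longer stretch searched in the next paragraph, they also occurred at Rpsa and Rpl39, with CHD4-labelled folds of 10.5 and 7.05. They did not occur there at Rpl4, Rpl27, Rpl13 or Rplp0, which had CHD4-labelled peaks too.

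Over the 81 promoters, searched on both strands from 250 bases before to 50 after the start, CCGGAAG occurred in 33.3%, against 8.86% of all 32851 promoters in the table and 11.9% of the 20417 that belong to protein-coding genes. ATGGCGG, the core of the YY1 motif, occurred in 17.3%, against 4.05% of all promoters and 5.37% of those of protein-coding genes. Its longer form AAGATGGCG, which overlaps it, occurred in 7.41% against 1.40% and 1.89%. Starts of the same gene were counted separately, and these 6 promoters belonged to 4 genes. GGGCGG (SP/KLF) occurred in 58.0% against 35.7% and 47.7%. The other letters searched were nearer to the table. TATAAA, a core promoter element, occurred in 9.88% against 13.6% and 12.4%. CACGTG (E-box) occurred in 9.88%, which is 8 promoters of 6 genes, against 7.15% and 8.05%. GCGCATGC (NRF1) occurred in 3.70% against 2.71% and 3.63%. A C followed by at least 4 pyrimidines stood exactly at the annotated start of 18.5% of the members' promoters, against 2.51% of all promoters. A run of at least 8 pyrimidines between 40 bases before the start and 15 bases from it onward, a window chosen after the sequences were seen, was present in 49.4% against 22.8%. The median number of CG dinucleotides per promoter was 21, against 14 for protein-coding genes, at a median GC content of 58.0% against 57.0%. Such matches describe letters and not binding.

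A gene was counted for a list when at least 1 bp of a peak lay within 1 kb of either annotated end of the gene. By this rule 76 of the 89 genes (85.4%, interval 76.6 to 91.3) had a CHD4-labelled peak, against 45.7% of all protein-coding genes. HDAC1-labelled peaks were at 29 members (32.6%, interval 23.7 to 42.9), against 28.0% of all genes. RBBP4 peaks were at 39 members (43.8%, interval 34.0 to 54.2), against 47.9%. HDAC2-labelled peaks were at 7 members (7.87%, interval 3.86 to 15.4), against 10.0%. MBD3 peaks were at 12 members (13.48%, interval 7.88 to 22.1), against 23.8%, and RBBP7 peaks were at 6 members (6.74%, interval 3.13 to 13.9), against 12.51%. The plot of shares by list shows each pair of values.

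**Figure D1:**
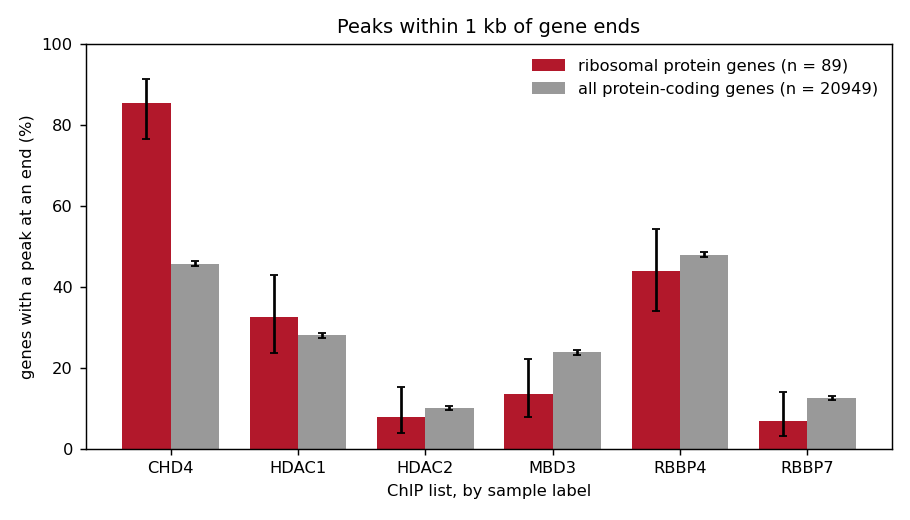
Share of genes with at least 1 peak within 1 kb of a gene end (vertical axis, percent) in each ChIP list (horizontal axis, by sample label), for the 89 ribosomal protein genes and all 20949 protein-coding genes; error bars are Wilson 95% intervals over genes. The members stand at 85.4% against 45.7% in the CHD4-labelled list and at 13.48% against 23.8% in the MBD3 list.

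The ribosomal proteins proper accounted for most of the CHD4-labelled count. Of the 77, 72 had such a peak (93.5%, interval 85.7 to 97.2), with 43 of 46 in the large subunit and 29 of 31 in the small subunit. Of the 12 paralogs and other symbols, 4 had one (33.3%, interval 13.8 to 60.9), an interval that includes the 45.7% of all genes. HDAC1-labelled peaks were at 19 large-subunit genes (41.3%, interval 28.3 to 55.7) and 8 small-subunit genes (25.8%, interval 13.7 to 43.2), and RBBP4 peaks at 21 (45.7%) and 14 (45.2%); differences between the subunits were not tested. All 12 MBD3 peaks and all 6 RBBP7 peaks were at ribosomal proteins proper. For both lists, 0 of the 12 paralogs and other symbols has an interval of 0 to 24.2%. It includes the shares of all genes, 23.8% for MBD3 and 12.51% for RBBP7.

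The genes of the family varied widely in how many lists reached them. There were 12 members with 0 lists, 28 with 1 (31.5% against 11.7% of all genes), 22 with 2 (24.7% against 13.3%), 16 with 3 (18.0% against 12.51%), 7 with 4 (7.87% against 9.98%), 3 with 5 (3.37% against 6.88%) and 1 with all 6. The share with all 6 was 1.12% against 2.998% of all genes, and the share with no list was 13.48% against 42.7%. The CHD4-labelled list and no other was found at 27 members (30.3%, interval 21.8 to 40.5), against 5.42% of all genes. These 27 were all ribosomal proteins proper, 14 of the large and 13 of the small subunit. Just 1 member, Rpl3l, had another list without the CHD4-labelled one (1.12% against 11.6% of all genes).

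Among genes that had a CHD4-labelled peak, each of the other lists was less frequent at the 76 members than at all 9582 such genes. RBBP4 peaks accompanied it at 38 of 76 members, against 81.1% of genes, and HDAC1-labelled peaks at 38.2% against 57.8%. The shares for MBD3 were 15.8% against 44.2%, for HDAC2-labelled peaks 9.21% against 19.1%, and for RBBP7 7.89% against 22.1%. These shares are descriptions of 1 library each and their differences were not tested.

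**Figure D2:**
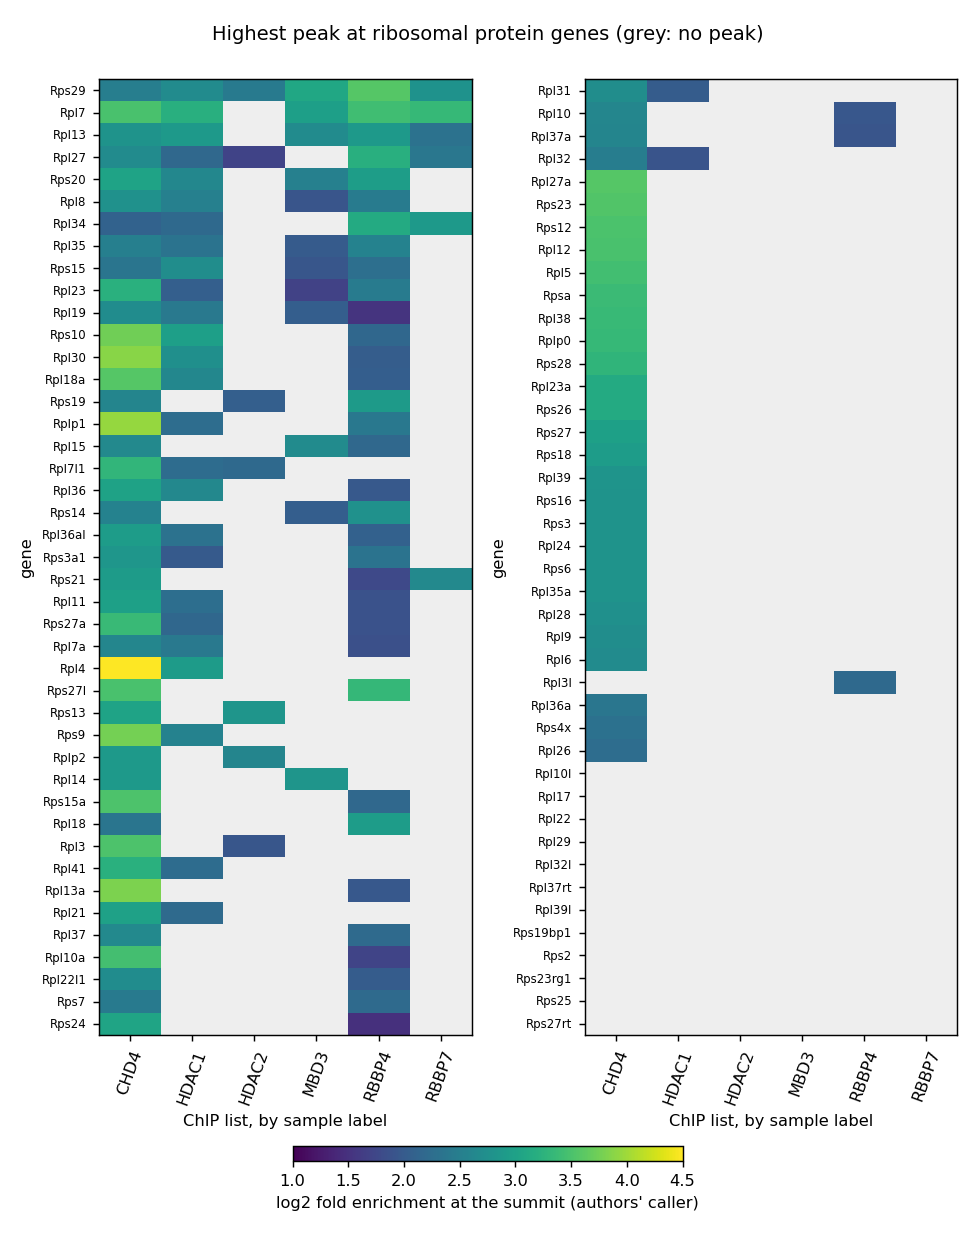
Highest peak at the ends of 85 of the 89 ribosomal protein genes (rows, in 2 panels, ordered by number of lists and then by rank within the lists) in the 6 ChIP lists (columns, by sample label), coloured by log2 fold enrichment as the authors' caller gave it, with grey for no peak. The CHD4-labelled column is filled for 72 of the genes drawn, and 25 of them have no other filled column.

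Rps29, a protein of the head of the small subunit, was the only member in all 6 lists. Its fold enrichment was 5.64 in the CHD4-labelled list, 6.44 in HDAC1, 5.42 in HDAC2, 8.48 in MBD3, 11.9 in RBBP4 and 6.92 in RBBP7. As percentiles among all peaks of the same list these were 49.97, 83.1, 84.8, 95.4, 99.04 and 64.04. The CHD4-labelled peak at Rps29, at chr12:69159552-69159969, was thus an average one for its list and narrow (418 bp), while its RBBP4 peak was the highest of the family in that list. The highest peak of each list lay past the annotated gene end at position 69159186 of chromosome 12, between 69159327 and 69160066, and a further CHD4-labelled peak lay inside the gene and covered 29.8% of it.

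Rpl7, Rpl13 and Rpl27 were each in 5 lists. Rpl7, of the large subunit, carried the highest peak of the family in the HDAC1-labelled list (9.24) and in RBBP7 (10.2), the second highest in MBD3 (7.89) and RBBP4 (10.7), and a fold of 11.3 in the CHD4-labelled list. Its CHD4-labelled peak, chr1:16103648-16106582, was 2935 bp wide, the widest at any member, and Rpl7 had the widest member peak in HDAC1 (1425 bp), MBD3 (1375 bp), RBBP4 (1364 bp) and RBBP7 (680 bp) too. In each of these 5 lists the peak also lay within 1 kb of an end of Rdh10, a retinol dehydrogenase of retinoic acid synthesis, so it cannot be assigned to one of the neighbours. Rpl13 had folds of 6.96 in the CHD4-labelled list, 7.42 in HDAC1, 6.46 in MBD3, 7.42 in RBBP4 and 5.01 in RBBP7, and no HDAC2-labelled peak. Rpl27 had folds of 6.44, 4.54 and 3.27 in the CHD4-, HDAC1- and HDAC2-labelled lists, 9.25 in RBBP4 and 5.22 in RBBP7, and no MBD3 peak. The peaks of both lay over the start sequences printed above or just beside them.

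In the CHD4-labelled list the highest member peak was at Rpl4, whose protein lines the exit tunnel of the large subunit. Its fold of 22.9 (chr9:64172280-64174247, 1968 bp) exceeded that of 99.9% of the list's peaks, with the summit 202 bp after the annotated start. The peak also reached an end of the neighbouring gene Zwilch. Rpl4 had an HDAC1-labelled peak too (7.56) and none in the other 4 lists. Rplp1 (15.4) and Rpl30 (14.7) followed. Near the lower end was Rpl34 (4.29), which ranked high in RBBP4 (8.81) and RBBP7 (7.39).

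Other lists had leaders of their own. In the HDAC1-labelled list, Rps10 (7.84) and Rpl4 (7.56) followed Rpl7. Rps13 (7.09), Rplp2 (6.05) and Rps29 (5.42) had the highest HDAC2-labelled peaks, and that of Rps29 was the widest there (700 bp). In MBD3, Rpl14 (7.103) came after Rps29 and Rpl7. In RBBP4, the third was Rps27l (10.1), a paralog of Rps27 known as a target of p53.

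The 27 genes with the CHD4-labelled list alone had among their highest peaks Rpl27a (11.9), Rps23 (11.7), Rps12 (11.4), Rpl12 (11.2) and Rpl5 (10.8). Rps23 lies at the decoding centre, Rpl12 at the base of the stalk, and Rpl5 carries the 5S rRNA. Their median fold was 7.62 (interquartile range 6.85 to 10.4), against 7.58 (6.10 to 10.99) at the 49 members with further lists. Their median width was 879 bp, against 1171 bp.

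The ribosomal stalk, which recruits the GTPases of translation, is built from Rplp0, Rplp1 and Rplp2. Rplp0 had a CHD4-labelled peak of 10.2 (chr5:115559458-115560456) and no other list. Rplp1 had folds of 15.4 in the CHD4-labelled list, 4.76 in HDAC1 and 5.26 in RBBP4. Rplp2 had 7.46 in the CHD4-labelled list and 6.05 in HDAC2, and both peaks also reached an end of Pidd1. Rpsa, a small-subunit protein also known as a laminin receptor, had the CHD4-labelled list alone (10.5, chr9:120127702-120128576). Rps27a, made as a fusion to ubiquitin, had 10.4 in the CHD4-labelled list, 4.48 in HDAC1 and 3.69 in RBBP4, each shared with an end of Clhc1.

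Paralogs did not follow their partner genes in a uniform way. Rpl3 had CHD4- and HDAC2-labelled peaks (11.5 and 3.84), whereas Rpl3l, a form known from striated muscle, had an RBBP4 peak alone (4.58), which also reached an end of Msrb1. Rpl10 had CHD4-labelled (6.07) and RBBP4 (3.86) peaks, and Rpl10l, an intronless form known from testis, had none. Rpl39 had a CHD4-labelled peak (7.05) and Rpl39l had none. Rps27 had a CHD4-labelled peak (7.94), Rps27l had CHD4-labelled (11.2) and RBBP4 (10.1) peaks, and Rps27rt had none. Rpl36a had a low CHD4-labelled peak (5.20), and Rpl36al had 7.62 in the CHD4-labelled list, 5.01 in HDAC1 and 4.24 in RBBP4, each shared with an end of Mgat2. Rpl7l1 had folds of 9.91, 4.72 and 4.58 in the CHD4-, HDAC1- and HDAC2-labelled lists, against the 5 lists of Rpl7, and its CHD4- and HDAC1-labelled peaks were shared with an end of 2310039H08Rik. Rpl22l1 had CHD4-labelled (6.51) and RBBP4 (4.04) peaks, where Rpl22 had none at its ends. Rps4x had a CHD4-labelled peak (4.93). Of the genes that share only the name, Rps19bp1 and Rps23rg1 had no peak.

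The 12 members with no list at an end were Rpl17, Rpl22, Rpl29, Rps2 and Rps25 among the ribosomal proteins proper, and Rpl10l, Rpl32l, Rpl37rt, Rpl39l, Rps19bp1, Rps23rg1 and Rps27rt among the others. Of these, 3 had peaks farther inside the gene. Rps2, of the small subunit, had a CHD4-labelled peak of 10.2 inside the gene, 1406 bp from the nearer end. Its summit lay 205 bp from an annotated start, and an RBBP4 peak of 3.14 lay within this peak. Rpl22 had a CHD4-labelled peak of 8.04, 1338 bp from the nearer end and 252 bp from another annotated start. Rpl17 had CHD4-labelled peaks of 8.02 and 5.42 inside the gene. The remaining 9 members had no peak of any list between their ends either, and of the ribosomal proteins proper these were Rpl29 and Rps25.

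Over the members with a CHD4-labelled peak the median fold was 7.60 (95% order-statistic interval 6.93 to 8.80, n = 76 genes), against 6.96 over all genes with such a peak, and the lower bound of that interval lay just under 6.96. Within the list, 66 of the 76 member peaks (86.8%) were above the median of all peaks, against 70.4% over all genes with a peak, and 24 (31.6%) were in the top decile, where 19.3% of all genes with a peak were. In the other lists the median fold was 5.06 against 5.32 (HDAC1), 4.58 against 4.21 (HDAC2), 4.94 against 4.71 (MBD3), 4.58 against 5.13 (RBBP4) and 6.60 against 5.57 (RBBP7). For HDAC2, MBD3 and RBBP7 these rest on 7, 12 and 6 genes.

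**Figure D3:**
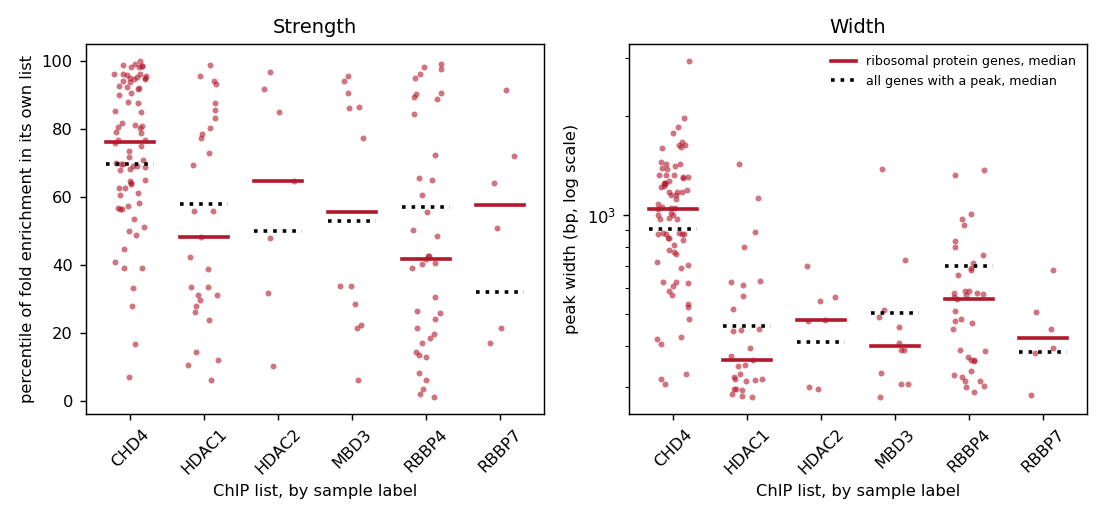
Highest peak at each ribosomal protein gene in each ChIP list, as the percentile of its fold enrichment among all peaks of that list (left) and as its width in bp on a log scale (right); points are genes, solid lines the members' median and dotted lines the median over all genes with a peak. CHD4-labelled peaks lie mostly above the list median, with a median width of 1044 bp against 902 bp, and RBBP4 peaks have a median width of 553 bp against 700 bp.

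CHD4-labelled peaks at members had a median width of 1044 bp, against 902 bp over all genes with such a peak. They were 1000 bp or wider at 41 members (53.9% against 43.4%), but only the peak at Rpl7 exceeded 2000 bp (1.32% against 10.2%). RBBP4 peaks at members had a median width of 553 bp, against 700 bp over all genes. Members were short, with a median gene length of 3183 bp against 17823 bp. CHD4-labelled peaks therefore covered a median of 26.1% of the member gene, against 3.23% over all genes with such a peak. They covered more than 50% of the gene at 8 of the 76 members (10.5%), against 2.04% over all genes with such a peak. HDAC1-labelled peaks covered a median of 8.02% of the member gene against 1.24%, and RBBP4 peaks 5.58% against 1.96%.

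Position was read for the members whose strand is known from the promoter table. The upstream end of each gene was counted among its annotated starts. The CHD4-labelled summit lay a median of 236 bp downstream of the nearest annotated start (interquartile range 151 to 406 bp, n = 58 genes), and 49 of the 58 (84.5%) were downstream. Over all genes the median was 195 bp and 77.2% were downstream. RBBP4 summits at members lay a median of 11 bp downstream of the start, against 37 bp over all genes, with 21 of 27 within 250 bp (77.8% against 68.6%). HDAC1-labelled summits had a median of 107 bp downstream (n = 17), against 118 bp. The 5 HDAC2-labelled summits with a known strand were all upstream of the start, where 49.1% of 1651 were over all genes. Where a gene had both, the RBBP4 peak overlapped the CHD4-labelled one at 32 of 38 members (84.2% against 87.8% over all genes), and the HDAC1-labelled peak did at 27 of 29 (93.1% against 88.6%). The MBD3 peak overlapped it at 8 of 12 members (66.7% against 82.6%), the RBBP7 peak at 5 of 6 (83.3% against 76.4%) and the HDAC2-labelled peak at 2 of 7 (28.6% against 71.2%).

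**Figure D4:**
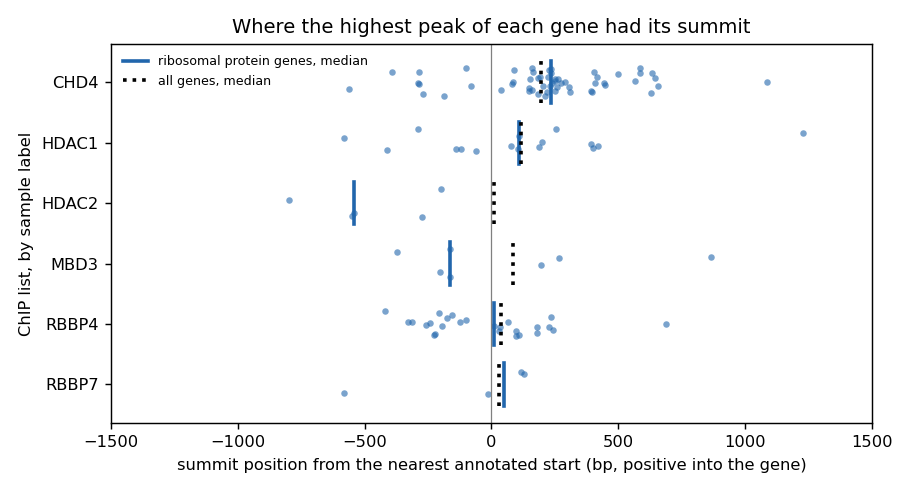
Distance in bp from the nearest annotated start to the summit of the highest peak at each ribosomal protein gene (horizontal axis, positive into the gene) for each ChIP list (vertical axis, by sample label); points are genes, solid lines the members' median and dotted lines the median over all genes. CHD4-labelled summits centre 236 bp into the gene and RBBP4 summits 11 bp from the start. The upstream gene end counts as a start. Summits farther than 1500 bp are not drawn.

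Neighbouring genes shared some of the peaks. The highest CHD4-labelled peak lay also within 1 kb of another gene's end at 20 of the 76 members (26.3% against 27.8% over all genes with such a peak), and this held for 8 of 29 HDAC1-labelled (27.6% against 26.4%) and 9 of 39 RBBP4 peaks (23.1% against 23.3%). With such peaks left out, 60 of 89 members kept a CHD4-labelled peak (67.4% against 33.7% of all genes). The windows at both ends cover most of a short gene, so members were counted again at the upstream end of the annotated gene alone. Annotated starts farther inside the gene were not used for this count. At the upstream end, 58 of the 69 members with a known strand had a CHD4-labelled peak (84.1%), against 45.1% of 16782 genes. HDAC1-labelled peaks were there at 15 (21.7% against 27.4%), below all genes, where the members' share at gene ends was above them. The sets of genes differ, because only 17 of the 29 members counted at gene ends have a known strand.

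The snoRNA hosts of the family were counted from the annotation. Of the 77 ribosomal proteins proper, 30 hold at least 1 of 59 snoRNA genes, with 5 in Rpl4 and 4 in each of Rpl13a and Rpl7a. CHD4-labelled peaks were at 28 of the 30 hosts and at 44 of the other 47. Their median fold was 8.20 (interquartile range 6.96 to 11.4) at hosts and 6.93 (5.99 to 9.85) at the others. RBBP4 peaks were at 11 of the 30 hosts and 24 of the 47 others, and MBD3 peaks at 3 and 9. Over all protein-coding genes the shares were 45.7% (CHD4-labelled), 47.9% (RBBP4) and 23.8% (MBD3). The median CHD4-labelled fold over all genes with such a peak was 6.96. Differences between hosts and the others were not tested.

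Other genes of translation were counted in the same way. Fau and Rack1, ribosomal proteins that the symbol rule misses, both had a CHD4-labelled peak, and Rack1 was in 5 lists. Of 78 mitochondrial ribosomal protein genes, 71 (91.0%, interval 82.6 to 95.6) had one, as did 33 of 34 translation factors (97.1%), with the elongation factor Eef2 the exception, and 25 of 28 ribosome assembly factors (89.3%), the exceptions being Npm1, Tsr1 and Ubtf. The high CHD4-labelled share was therefore not particular to cytosolic ribosomal proteins. RBBP4 peaks were at 26 of 34 translation factors (76.5%, interval 60.004 to 87.6), at 45 of 78 mitochondrial ribosomal protein genes (57.7%, interval 46.6 to 68.0) and at 43.8% of the 89 members, and these differences were not tested. The CHD4-labelled list and no other was found at 18 of 78 mitochondrial ribosomal protein genes, 4 of 34 translation factors and 4 of 28 assembly factors. Eif5b and Pabpc1 were in all 6 lists. Ncl, encoding nucleolin, had a CHD4-labelled fold of 20.2.

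**Figure D5:**
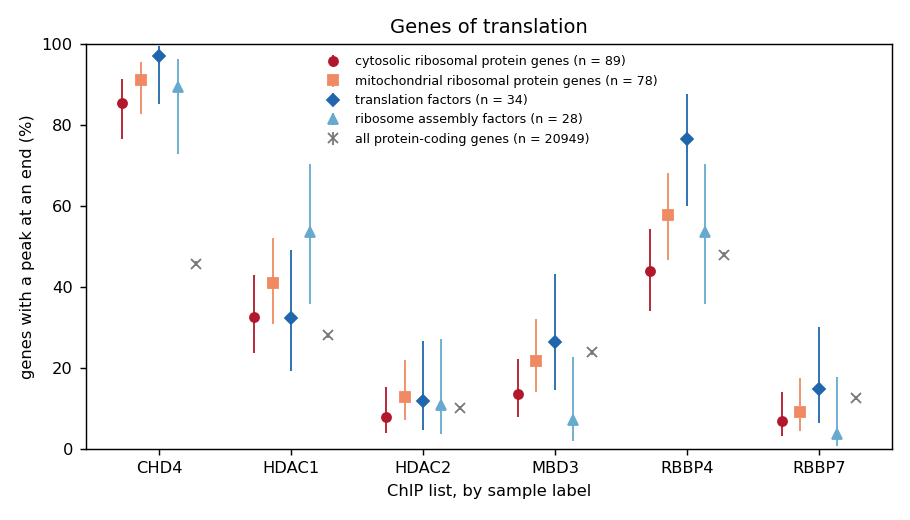
Share of genes with a peak within 1 kb of a gene end (vertical axis, percent) in each ChIP list (horizontal axis, by sample label) for 4 lists of translation genes and all protein-coding genes; error bars are Wilson 95% intervals over genes. In the CHD4-labelled list all 4 lists stand between 85.4% and 97.1%, and in RBBP4 the translation factors stand at 76.5% against 43.8% for cytosolic ribosomal protein genes.

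None of the 89 genes had a region of changed accessibility between WT and Dlx1/2KO embryos within 1 kb of an end, nor within 10 kb. The lists held 727 regions more open in KO and 53 more open in WT in FTneg, and 12 and 33 in FTpos. At 1 kb they reached 39, 4, 4 and 3 genes of all 20949, so few genes in all that a count of 0 among 89 says little. The nearest WT-higher regions were 144025 bp from Rpl37 (FTneg) and 1700067 bp from Rps7 (FTpos).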

How the data were processed

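Peaks of 6 NuRD subunits (ChIP-seq, 1 library each) and regions of changed accessibility (ATAC-seq, 4 lists) were read as deposited on mm10. Per the submitters' processing notes, deepTools, Genrich, MACS2 2.2.7.1, SAMtools 1.10 and BWA were used. Their settings, such as how reads that map to several places were treated, are not given in the sources used here. The deposited fold enrichment of each ChIP peak is a ratio at its summit from the authors' caller, and the deposited −log10 p and −log10 q are from the same caller. The deposited score of an accessibility region is the area under −log10 p by the authors. Depth is unknown. ChIP peaks were used to describe, rank or filter within a list.

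Gene ends came from the RefSeq table of GRCm38.p6, and strand and starts from its promoter table. For the summit positions of the highest peaks, the upstream gene end was counted as a start too. Exons and introns were not used. Overlap of at least 1 bp was counted in Python 3.11.15 with pandas 2.3.3, and the counting was tested on simulated data. A gene's highest peak by fold gave its fold, width and percentile. No statistical test was run. The members, gene lists, motifs and settings were chosen with earlier results of these data known. Named were members with all 6 lists or none, the 3 highest and the widest per list, the stalk genes, Rpsa, Rps27a and the paralog pairs, and, where reported here, the first 6 of a class of over 12 genes; neighbours sharing a peak and members at the low end, with 5 lists or with snoRNAs were named after their values were seen, as were single genes of the other translation lists. Rps4l was not analysed here. Some genes are counted but their single values are not reported here. Alternatives changed the window, the q threshold, the gene set, the treatment of shared peaks and the lists used.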

Additional observations from a re-analysis of the deposited data

How the results depend on the processing

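Of 153 recomputed values, 129 stayed within 1.5 times the reported count or within the order-statistic interval of the members' median fold, and 24 moved. A median fold that moved can still lie within the range of the members' folds. The cause was not tested beyond what each setting removes. With −log10 q of at least 10, members fell to 9 (HDAC1-labelled, 10.1% against 8.97% of all genes, median fold 6.72), 3 (HDAC2-labelled, 3.37% against 2.82%, where the reported share was below all genes), 24 (RBBP4, 27.0% against 34.9%, median fold 5.49), 2 (RBBP7, 2.25% against 2.87%) and 0 (all 6 lists), and 71 kept a CHD4-labelled peak (79.8% against 37.6%). At the upstream gene end alone, over 69 genes, the HDAC1-labelled count was 15 (21.7% against 27.4%, where the reported share was above all genes). MBD3 stood at 7 (10.1% against 22.5%) and all 6 lists at 0, Rps29 having no known strand. The genes with a known strand held only 17 of the reported HDAC1-labelled members and 7 of the MBD3 members. All 7 kept their MBD3 peak at the upstream end, so that count fell only because genes without a known strand were left out. Members with no list numbered 5 without the paralogs, 29 without shared peaks and 39 without the CHD4-labelled list. Members in all remaining lists numbered 3 without the HDAC2-labelled and 2 without the MBD3 list. The 5517 strongest peaks of every list, chosen after seeing the data like the next 2 alternatives, left 47 members with a CHD4-labelled peak (52.8% against 23.5%, median fold 9.91), 15 HDAC1-labelled (16.9% against 16.4%, median fold 6.21), 12 RBBP4 (13.48% against 12.55%, where the reported share was below all genes, median fold 7.68), 2 RBBP7 (2.25% against 2.72%), 0 with all 6 lists and 34 with none. Adding annotated starts gave 78 members with a CHD4-labelled peak and adding the gene body 79. For these 2 additions the share over all genes was not computed, so the counts cannot be set against it. Nor was that share computed for the changed counts of members with no list or in all lists.

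No paired analysis was possible because each ChIP list is 1 library and each accessibility list combines its embryos. Leaving out a replicate was not possible either, and whole lists were left out instead. Depth is unknown for every list, so shares were read against all genes of the same list and not between lists.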

Other observations

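Ribosomal proteins have many processed pseudogenes, which resemble the genes in sequence. The annotation holds 318 pseudogenes named after members of the family, and few had a peak within 1 kb of an end: 2 in the CHD4-labelled list (0.629%, against 0.997% of all 10328 pseudogenes), 2 in HDAC1 (0.629% against 0.503%), 1 in HDAC2 (0.314% against 0.271%), 0 in MBD3 (against 0.455%), 5 in RBBP4 (1.57% against 1.58%) and 4 in RBBP7 (1.26% against 0.6003%). Rpl31-ps20 had a peak in 3 lists (HDAC1-labelled, RBBP4 and RBBP7), and Rpl30-ps3 in the CHD4- and HDAC1-labelled lists; both were picked after their values were seen. How reads that match a gene and its pseudogenes equally well were placed is not known, and its part in the counts at members was not tested.

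Ribosome assembly factors, the proteins that build the subunits in the nucleolus, had the highest median CHD4-labelled fold of the 4 translation lists examined, 10.6 (interquartile range 8.57 to 13.2, n = 25 genes), against 8.22 at translation factors, 7.60 at cytosolic and 7.37 at mitochondrial ribosomal protein genes. Nop2, an rRNA methyltransferase, was in 5 lists with a CHD4-labelled fold of 14.7. MBD3 peaks were at 2 of the 28 assembly factors and HDAC1-labelled peaks at 15.

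Promoter GC content was taken for each gene at the annotated start where it was highest. The 24 members with the CHD4-labelled list alone and a known strand had a median of 56.8%, and the 34 with further lists 59.5%. The 10 members with no list at an end and a known strand had 52.3%, and 7 of these 10 are paralogs or genes that only share the name. The 10 include Rps2 and Rpl22, which had CHD4-labelled peaks inside the gene. Their summits lay 205 and 252 bp from the starts used here.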
